A study of Mus musculus with 16 samples.

Results

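Iron handling in brain endothelial cells (bECs) was followed through 9 genes, taken from the count table by their symbols: Cp, Heph, Tfrc, Trf, Fth1, Ftl1, Hmox1, Ireb2 and Aco1. They are 9 of 37003 genes in the table, and all 9 passed the filter on low counts that left 31085 genes for testing. RNA came from bECs sorted as DAPI-, CD45- and CD31+ cells 72 hours after surgery, with 16 libraries in 4 groups of 4. YT-iKO mice carried Pdgfb-iCreERT2+/- (named Pdgfb-iCreER-eGFP in the study's methods) with Yapfl/fl and Wwtr1fl/fl alleles, so that tamoxifen removed Yap and Taz (the product of Wwtr1) in cells with Pdgfb promoter activity, which in the brain marks endothelium. CTRL mice were littermates with the same floxed alleles and no Cre transgene, and both genotypes received tamoxifen. Adult mice of both sexes underwent sham surgery or a 30 min occlusion of the middle cerebral artery (MCAo) with later reperfusion, and the MCAo libraries came from dissected territory of that artery. Each library is a pool of several mice, so the spread between replicates is the spread between pools. How many males and females entered a pool was not stated.

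Iron reaches the brain across its endothelium. Transferrin in the blood carries iron to the transferrin receptor on the luminal surface, the complex is taken into endosomes, and iron then enters the cytosol. There it is stored in ferritin or leaves through ferroportin, and ferroxidases such as ceruloplasmin and hephaestin oxidise it on the way out. Heme oxygenase adds iron from heme. The iron regulatory proteins bind short hairpins in mRNAs, the iron-responsive elements, when iron is scarce. In the 5′ UTR of ferritin and ferroportin mRNAs this binding blocks translation, and in the 3′ UTR of the transferrin receptor mRNA it protects the transcript from decay.

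Iron-responsive elements were searched for by sequence in the mRNAs of the members and of Slc40a1. The matches are shown here as 30 bases each from GENCODE M21 transcripts on GRCm38. A match needed the loop CAGTGN, with N other than G, flanked by 5 base pairs and a C before the stem. The 6 loop bases are in capitals, 5′ to 3′.

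Fth1, 5′ UTR, chr19:9982732-9982761, plus strand: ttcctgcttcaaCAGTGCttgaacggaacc
Ftl1, 5′ UTR, chr7:45459778-45459807, minus strand: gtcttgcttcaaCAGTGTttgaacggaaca
Slc40a1 (ferroportin), 5′ UTR, chr1:45925464-45925493, minus strand: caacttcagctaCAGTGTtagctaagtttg
Tfrc, 3′ UTR, chr16:32631219-32631248, plus strand: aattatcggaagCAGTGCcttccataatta
Tfrc, 3′ UTR, chr16:32631598-32631627, plus strand: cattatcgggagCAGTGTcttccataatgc
Tfrc, 3′ UTR, chr16:32631663-32631692, plus strand: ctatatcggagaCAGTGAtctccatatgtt
Tfrc, 3′ UTR, chr16:32631710-32631739, plus strand: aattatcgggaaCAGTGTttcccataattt

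Under this rule Fth1, Ftl1 and Slc40a1 each held 1 element ahead of the coding sequence, in 4 of 5, 2 of 3 and 1 of 4 annotated coding transcripts. Tfrc held 4 behind it, all in 1 of its 3 coding transcripts. The 23 coding transcripts of Cp, Heph, Trf, Hmox1, Ireb2 and Aco1 held none of this form in a UTR. Counts of reads measure transcript amount, so translation through the 5′ elements was not measured here.

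Promoter windows from RefSeq (GRCm38.p6, 250 bases before to 50 after a start site) were found for 6 of the 9 genes, as 9 windows. They were searched on both strands for GGAATG (TEAD, the DNA-binding partners of YAP and TAZ), TGACNNNGC (antioxidant response), TTCNNNGAA (STAT) and ACGTG (hypoxia response). Of all 32851 promoter windows, 14.7%, 12.4%, 8.3% and 19.6% held these letters, in that order. A single GGAATG on the reverse strand lay in both overlapping Cp windows and a single ACGTG in both overlapping Tfrc windows. None of these letters was found in the windows of Fth1, Ftl1, Ireb2 and Aco1. The match is in capitals in 30 bases of each gene.

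Cp, chr3:19957041-19957070, plus strand: acaaacagatgaCATTCCtttgtagttaga
Tfrc, chr16:32608882-32608911, plus strand: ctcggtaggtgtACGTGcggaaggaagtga

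The Cp match begins 1 base before the first start site and 196 bases before the second. Such a match describes the letters only.

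The total count per library ran from 11418262 to 23074547. Yap1 lay at 38.6 to 59.2 CPM (counts scaled to library size) in YT-iKO sham and at 111 to 112 in CTRL sham, and at 37.1 to 63.0 in YT-iKO MCAo and 80.5 to 133 in CTRL MCAo. Wwtr1 was lower in YT-iKO by 1.88 (log2 scale) after sham and by 1.88 after MCAo, with adjusted p = 0.00381 and 0.00356 (edgeR). All 10 endothelial markers were counted in every library, with a summed level of 9394 to 20180 CPM. Pericyte and smooth muscle markers came next at 379 to 1056 CPM, and the list of every other cell type summed to at most 118 CPM. Libraries also differed in an even background of reads, measured as the density of counts on 1561 olfactory, vomeronasal and taste receptor genes. It ran from 0.0308 CPM per kilobase of exon in YT-iKO MCAo replicate 4 to 0.578 in YT-iKO MCAo replicate 2. Both MCAo groups held libraries of low density (replicates 1 and 4, 0.0308 to 0.164) and of high density (replicates 2 and 3, 0.329 to 0.578). Of the sham libraries, YT-iKO sham replicate 3 stood apart at 0.571, and the others lay between 0.157 and 0.253.

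The background densities above were divided by each library's total count, and all other CPM are scaled by edgeR's TMM factors. Compared per kilobase of exon, the 9 genes covered a wide range of levels. In CTRL sham the order was Tfrc, Fth1, Cp, Ftl1, Ireb2, Aco1, Hmox1, Heph and Trf, from 131 ± 24.7 CPM per kilobase for Tfrc to 0.282 ± 0.0473 for Trf (SD, n = 4). Each gene was above the next in all 4 CTRL sham libraries, except Ireb2, which was above Aco1 in 1. Over all 16 libraries Fth1 averaged 124 CPM per kilobase, above 99.6% of the 30983 tested genes with a known length, and Tfrc averaged 90.6, above 99.3%. Heph, at 1.02, was near the middle of the tested genes (above 50.3%). The order was not the same in every group. After sham Tfrc was above Fth1 in 4 of 4 CTRL and 2 of 4 YT-iKO libraries, while after MCAo Fth1 was above Tfrc in all 8. Cp was above Ftl1 in all 8 CTRL libraries and below it in all 8 YT-iKO libraries.

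**Figure D1:**
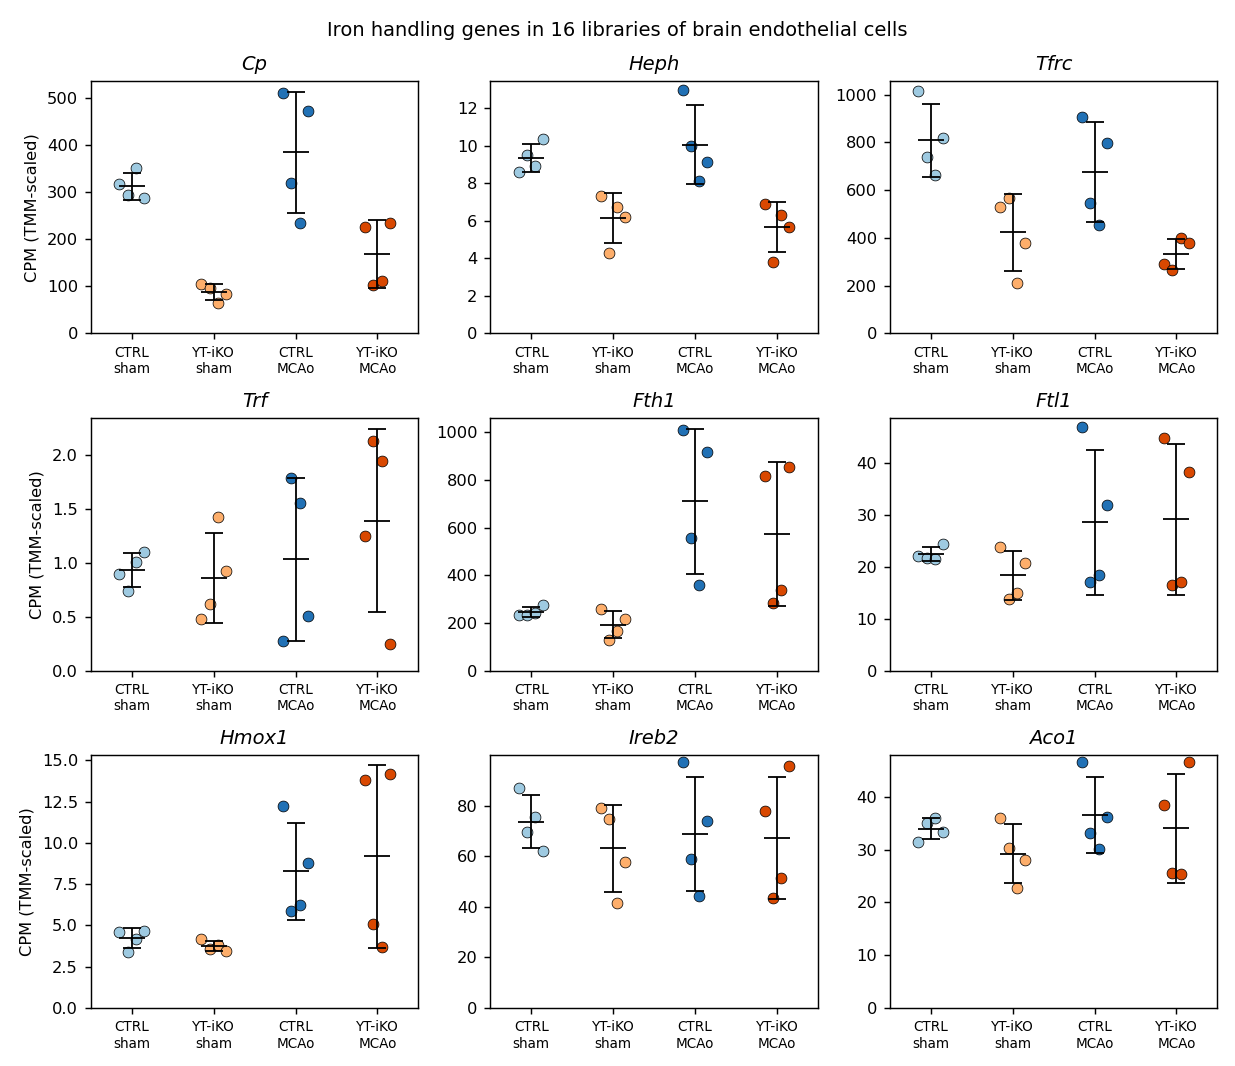
CPM (TMM-scaled, linear axes from 0) of the 9 iron handling genes in each of the 16 libraries, by group, with the mean and SD (n = 4). The YT-iKO libraries lie below the CTRL libraries of the same surgery for Cp, Heph and Tfrc, and the MCAo libraries lie above the sham libraries of the same genotype for Fth1.

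The first comparison asks how YT-iKO bECs, in which Yap1 and Wwtr1 transcripts were reduced and not absent, differ from CTRL bECs after sham surgery. Cp, which encodes the secreted or membrane-anchored ferroxidase ceruloplasmin, was the 1 member that fell (called at an adjusted p under 0.1 by edgeR). Over all genes tested, 0.0965% were called in this comparison. Tfrc and Heph were not called, but their groups did not overlap either. Of the others, Trf was at background level and is described apart, and Fth1, Ftl1, Hmox1, Ireb2 and Aco1 had log2 fold changes between -0.36 and -0.17, none with an unadjusted p under 0.05.

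Cp (chr3:19957054-20009145) had 317, 294, 350.2 and 288 CPM in CTRL sham and 104, 97.0, 65.2 and 83.2 CPM in YT-iKO sham. All 4 YT-iKO libraries were far below all 4 CTRL libraries, and the groups did not overlap. The mean was 312 ± 28.2 CPM in CTRL sham and 87.4 ± 17.2 CPM in YT-iKO sham (SD, n = 4), a log2 fold change of -1.84 (SE 0.30), or 3.57-fold lower, with adjusted p = 0.00873 (edgeR). Without YT-iKO sham replicate 4 the fold change was -1.82 and the adjusted p 0.106. The exact permutation test gave p = 0.0286, the smallest that 70 assignments of 4 and 4 libraries allow. Cp shares 108 exon bases with Hps3 on the opposite strand, out of 9566. The astrocyte markers were also apart between these groups, with a summed level of 102 to 117 CPM in CTRL sham and 65.4 to 89.5 CPM in YT-iKO sham, mostly Gja1 (54.0 to 69.0 and 32.5 to 51.6 CPM), with all 8 markers counted in every library. Gfap ran from 4.04 to 6.11 and from 4.63 to 8.23 CPM. Their part in the result was not tested. Hps3 itself ran from 62.8 to 75.7 CPM in CTRL sham and from 39.3 to 70.8 in YT-iKO sham.

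Tfrc (chr16:32608920-32632794), the receptor that takes up transferrin-bound iron, had 1017, 738, 662 and 818 CPM in CTRL sham. In YT-iKO sham it had 532, 567, 213 and 379.5 CPM. The lowest of the 4 was YT-iKO sham replicate 3, the library of high background, and the other 3 were still below every CTRL library. The log2 fold change was -0.94 (SE 0.30; edgeR, unadjusted p = 0.00466, adjusted p = 0.990), and without replicate 3 of YT-iKO sham it was -0.71.

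Heph (chrX:96455359-96574485) encodes hephaestin, the membrane-bound relative of ceruloplasmin. It had 8.62, 9.51, 8.94 and 10.3 CPM in CTRL sham and 7.33, 4.27, 6.74 and 6.19 CPM in YT-iKO sham. These low levels also did not overlap, and the log2 fold change was -0.61 (SE 0.23; edgeR, unadjusted p = 0.0163, adjusted p = 0.990). In all, 3 of the 9 members had groups that did not overlap, all 3 lower in YT-iKO. Such separation in either direction was found for 3.85% of all genes tested. Without Trf, the median log2 fold change was -0.33 over the other 8 members and 0.11 over all genes tested. The means of all 10 endothelial markers were also lower in YT-iKO sham, with a summed level of 10130 to 17470 CPM against 16250 to 17560 CPM in CTRL sham (Pecam1 893 against 1183 CPM, Cldn5 902 against 1235 CPM). The part of this in the members' values was not tested.

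The same contrast after MCAo gave no calls among the members with edgeR, against 0.0708% of all genes tested. At an unadjusted p under 0.05 there were 3 of 9 with edgeR, again Cp, Heph and Tfrc, each lower in YT-iKO and with groups that did not overlap. Over all genes tested, 1.49% had such a p. Separation of the groups was seen for 0.981% of all genes tested.

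Cp had 509.8, 319.7, 235.4 and 472 CPM in CTRL MCAo and 226, 102, 110.5 and 234.5 CPM in YT-iKO MCAo. Replicates 1 and 4 were high and replicates 2 and 3 low in both genotypes. Replicates 1 and 4 are the libraries of low background density and replicates 2 and 3 those of high density. The lowest CTRL library (235.4 CPM) was only just above the highest YT-iKO library (234.5 CPM). With even background taken off (receptor gene density times exon length) these became 232.3 and 234.1 CPM, so that the groups overlapped and the exact permutation p went from 0.0286 to 0.0571. The log2 fold change was -1.19 (SE 0.29; edgeR, unadjusted p = 0.000502, adjusted p = 0.379). The call depended on the method. DESeq2 gave an adjusted p of 0.00522 and edgeR with the background density as a covariate gave 8.54e-07. Left out 1 at a time, CTRL MCAo replicate 3, YT-iKO MCAo replicate 1 and YT-iKO MCAo replicate 4 each brought edgeR's adjusted p for Cp below 0.1 (0.0763, 0.0675 and 0.0393). The other 13 left Cp uncalled, with an adjusted p of 1.0 without CTRL MCAo replicate 4 or YT-iKO MCAo replicate 3, and the Y-linked covariate gave 0.943.

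Tfrc had 905, 546, 455 and 799.6 CPM in CTRL MCAo and 290.5, 267, 398 and 377 CPM in YT-iKO MCAo. The YT-iKO libraries did not show the spread of the CTRL libraries, and all 4 were below them. The log2 fold change was -1.02 (SE 0.30; edgeR, unadjusted p = 0.00237, adjusted p = 0.889). Heph had 13.0, 9.99, 8.14 and 9.13 CPM in CTRL MCAo and 6.87, 3.82, 6.28 and 5.67 CPM in YT-iKO MCAo, a log2 fold change of -0.83 (SE 0.23; edgeR, unadjusted p = 0.00193, adjusted p = 0.825). DESeq2 called all 3 genes here, with adjusted p = 0.0457 for Tfrc and 0.0960 for Heph, and 0.461% of the genes it tested. The study, which used DESeq2, also lists these 3 genes as lower in YT-iKO after MCAo. With the background density as a covariate, edgeR also called all 3 and 0.898% of all genes. Fth1, Ftl1, Hmox1, Ireb2 and Aco1 had log2 fold changes between -0.31 and 0.15, with overlapping groups.

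**Figure D2:**
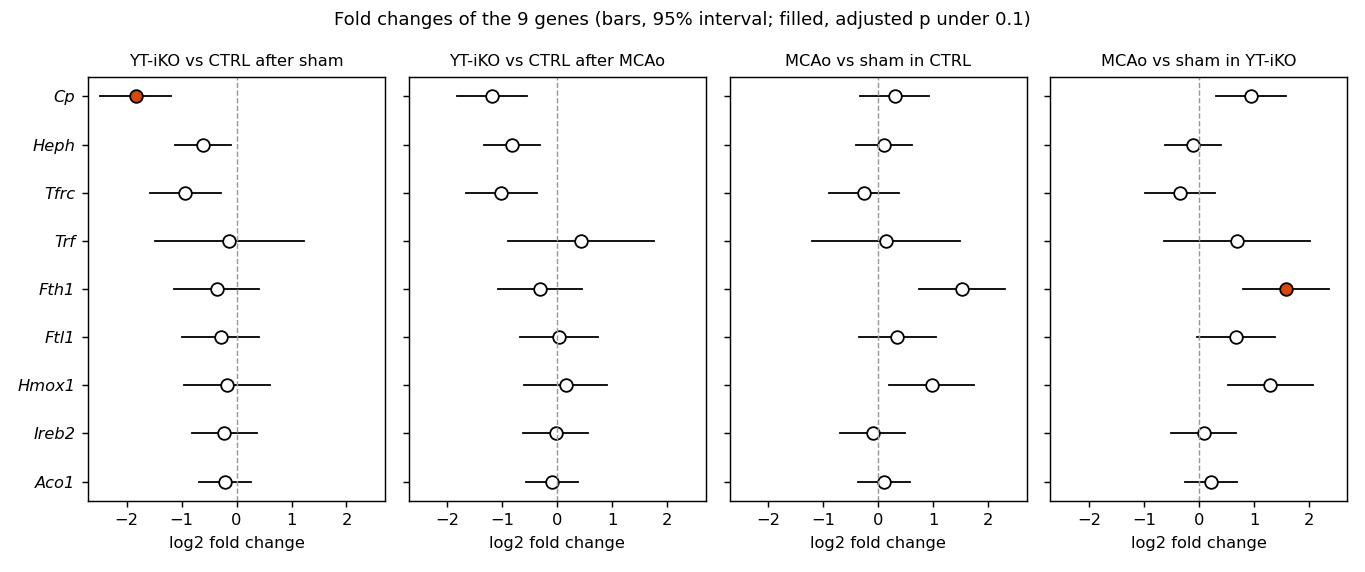
Log2 fold changes (horizontal axis) of the 9 genes in the 4 comparisons, with 95% intervals from the standard error, and a filled point where the adjusted p (edgeR) was under 0.1. Cp after sham (-1.84) and Fth1 in YT-iKO (1.58) are the filled points.

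How much of a low count could be even background was worked out from the receptor gene density times exon length. For Cp it came to at most 6.2% of the counts in any library, and for Tfrc to at most 1.23%. For Heph it was 13.7% to 18.3% in CTRL sham, 17.8% to 48.1% in YT-iKO sham, 8.31% to 30.1% in CTRL MCAo and 5.58% to 82.9% in YT-iKO MCAo. YT-iKO MCAo replicate 2 had 61 Heph counts, of which 50.5 were expected. With this background taken off, Heph had 7.04 to 8.92 CPM in CTRL sham and 2.96 to 6.02 in YT-iKO sham, and 5.69 to 11.9 CPM in CTRL MCAo and 0.656 to 5.56 in YT-iKO MCAo. The groups still did not overlap in either comparison (exact permutation p = 0.0286 in each).

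Heph is on the X chromosome, and a density from 69 X-linked genes (the Rhox, Magea, Mageb, Ssx and olfactory receptor families) differed from the autosomal one in several libraries. In YT-iKO sham replicate 3 the X-linked density gave 118.5 expected counts for Heph against 104 observed, and in YT-iKO MCAo replicates 2 and 3 it gave 58.6 against 61 and 91.6 against 97. On this measure those 3 YT-iKO libraries were at or near background. In CTRL MCAo replicate 3 the remainder was 2.78 CPM, below 2 of the YT-iKO MCAo libraries. The sham groups did not overlap on this measure (5.57 to 8.03 CPM in CTRL and -0.94 to 4.65 CPM in YT-iKO). Xist varied from 0.752 to 1431 CPM between libraries. With the summed level of 4 Y-linked genes as a covariate, the log2 fold change of Heph was -0.62 after sham and -0.86 after MCAo.

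Trf (chr9:103204001-103230444) encodes transferrin, which in the brain is made by oligodendrocytes and choroid plexus. It was the lowest member, with 4 to 34 counts per library, and 2.20 to 21.9 counts were expected from background. It lay below that expectation in 3 libraries and followed the background density (r = 0.84 over 16 libraries, a description in which points share a library's depth). Trf also shares 2108 of its 3320 exon bases with the gene model Gm20425 on the same strand, and its fold changes were not read. The oligodendrocyte list summed to 22.1 to 43.8 CPM and the choroid plexus list to 19.1 to 118 CPM.

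**Figure D3:**
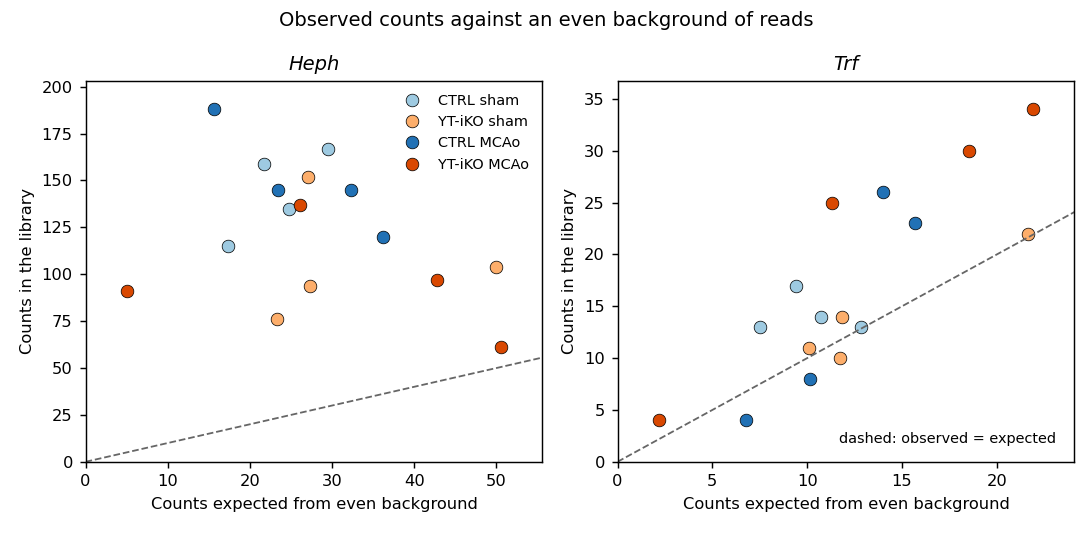
Counts of Heph and Trf in each library (vertical axis) against the counts expected from an even background of reads (horizontal axis), by group, with a dashed line where both are equal. Heph lies above the line in all libraries, nearest to it in YT-iKO MCAo replicate 2 (61 against 50.5), and Trf lies nearer to the line and below it in 3 libraries.

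The next comparisons ask what MCAo changed within each genotype. In CTRL no member was called by edgeR (0.216% of all genes tested were), and 2 of 9, Fth1 and Hmox1, had groups that did not overlap and an unadjusted p under 0.05. Separation of the CTRL groups was found for 4.14% of all genes tested. In YT-iKO, Fth1 rose and was the 1 member called (0.318% of all genes tested), and it alone had groups that did not overlap (1.28% of all genes tested). Unadjusted p under 0.05 held there for Fth1, Hmox1 and Cp. Over all genes tested it held for 3.5% in CTRL and 3.01% in YT-iKO.

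Fth1 (chr19:9980598-9985098), the ferritin heavy chain that oxidises iron for storage, had 232, 235, 243 and 274 CPM in CTRL sham. After MCAo the CTRL libraries had 1009, 556.5, 360.2 and 916 CPM. The lowest MCAo library was above the highest sham library, and the MCAo libraries spread far more widely. The fibroblast list was also apart in CTRL, at 19.4 to 23.8 CPM after sham and 28.1 to 35.1 CPM after MCAo, with 5 or 6 of 6 genes counted (Dcn 0.777 to 1.54 and 2.65 to 7.87 CPM). In YT-iKO that list overlapped (19.5 to 39.8 and 27.2 to 38.3 CPM). The oligodendrocyte list was apart in CTRL too (22.1 to 29.8 and 29.96 to 36.6 CPM), as was the astrocyte marker Gfap (4.04 to 6.11 and 8.77 to 13.3 CPM). The summed astrocyte list overlapped in CTRL (102 to 117 CPM after sham and 96.9 to 118 CPM after MCAo), and its members went both ways. Mean Slc1a2 went from 20.1 to 15.2 CPM and mean Aldh1l1 from 2.90 to 4.12 CPM. The part of these markers in the differences between sham and MCAo was not tested. The log2 fold change of Fth1 in CTRL was 1.53 (SE 0.36; edgeR, unadjusted p = 0.000337, adjusted p = 0.125), or 2.89-fold. DESeq2 gave an adjusted p of 0.00139, and called 1.11% of the genes it tested. Leaving out 1 library brought edgeR's adjusted p below 0.1 in 8 of 16 cases, including CTRL MCAo replicate 3, the lowest of the group (0.0345).

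In YT-iKO, Fth1 had 257, 126, 168 and 215 CPM after sham and 815, 285, 337 and 854 CPM after MCAo. Replicates 1 and 4 were again the high ones. The log2 fold change was 1.58 (SE 0.36), or 2.99-fold, with adjusted p = 0.0871 (edgeR). With limma-voom it was 0.84, still called. This call was near the threshold, and it was lost when any 1 of 12 libraries was left out (adjusted p up to 0.457, without YT-iKO MCAo replicate 1). The exact permutation test gave p = 0.0286 in both genotypes.

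Ftl1 (chr7:45457944-45459884), the light chain that helps the iron core form, had less change. It ran from 21.45 to 24.5 CPM in CTRL sham and 17.0 to 47.0 in CTRL MCAo, and from 13.8 to 23.9 CPM in YT-iKO sham and 16.5 to 44.8 in YT-iKO MCAo. The groups overlapped in both genotypes, with log2 fold changes of 0.35 (SE 0.32) and 0.67 (SE 0.32). Its exon bases overlap a miRNA gene model and an antisense model, and the processed pseudogene Ftl1-ps2 was counted apart at 5 to 33 counts per library. How reads with several matches were counted is not given in the sources used here, so Ftl1 counts are uncertain to that extent.

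Hmox1 (chr8:75093621-75100589) encodes the inducible heme oxygenase, which frees iron from heme. It had 4.60, 3.36, 4.20 and 4.68 CPM in CTRL sham and 12.2, 5.86, 6.24 and 8.75 CPM in CTRL MCAo. All CTRL MCAo libraries were above all CTRL sham libraries. The log2 fold change was 0.97 (SE 0.35; edgeR, unadjusted p = 0.0119, adjusted p = 0.950). Hmox1 was called in CTRL in 4 of 10 other settings and in none of 16 cases with 1 library left out. In YT-iKO it had 4.15, 3.54, 3.82 and 3.43 CPM after sham and 13.8, 5.08, 3.69 and 14.2 CPM after MCAo. Replicates 1 and 4 of YT-iKO MCAo were high, replicate 3 lay within the sham range, and the log2 fold change was 1.30 (SE 0.35; edgeR, unadjusted p = 0.00141, adjusted p = 0.265). With limma-voom it was 0.22 (adjusted p = 0.543). DESeq2 called Hmox1 in YT-iKO (adjusted p = 0.0431), with 1.25% of the genes it tested, and edgeR did so without YT-iKO MCAo replicate 3 (0.0331) or replicate 2 (0.0605).

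Cp had log2 fold changes after MCAo of 0.30 (SE 0.29) in CTRL and 0.95 (SE 0.29) in YT-iKO. In YT-iKO its MCAo libraries (102 to 234.5 CPM) overlapped the sham libraries (65.2 to 104 CPM), with adjusted p = 0.456 by edgeR, 0.0765 by DESeq2 and 0.0777 by edgeR without YT-iKO MCAo replicate 2, and limma-voom gave a log2 fold change of 0.32 (adjusted p = 0.207). Tfrc had log2 fold changes of -0.26 (SE 0.29) and -0.34 (SE 0.29), and Heph of 0.10 (SE 0.23) and -0.11 (SE 0.24), each with overlapping groups. Without Trf, the median log2 fold change of the other 8 members was 0.20 in CTRL and 0.44 in YT-iKO, beside 0.07 and -0.02 over all genes tested. Comparisons that use the same group share its libraries.

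The difference of the MCAo response between genotypes was called for none of the 9 members and for 0% of all genes tested by edgeR. DESeq2 and limma-voom called no member either, and at an unadjusted p under 0.05 there were 0 of 9 members and 116 of all genes. The estimate farthest from 0 among the members was that of Cp, 0.65 (95% interval -0.24 to 1.53). For Fth1 it was 0.05 (95% interval -1.03 to 1.14) and for Tfrc -0.09 (95% interval -0.99 to 0.82), so that these libraries left room for sizeable differences in either direction.

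Ireb2 (chr9:54863789-54912530) and Aco1 (chr4:40143081-40198338) encode the iron regulatory proteins that bind the elements shown above, and Aco1 is also the cytosolic aconitase. Ireb2 ran from 62.1 to 86.9 CPM in CTRL sham, 41.4 to 79.0 in YT-iKO sham, 44.3 to 97.1 in CTRL MCAo and 43.4 to 95.7 in YT-iKO MCAo. Aco1 ran from 31.4 to 36.0, 22.7 to 36.0, 30.1 to 46.7 and 25.5 to 46.6 CPM in the same order. The groups overlapped in every comparison, and the log2 fold changes lay between -0.22 and 0.22 with SE of 0.21 to 0.27. Both genes were low where the background density was high, with r = -0.88 for each over 16 libraries (a description, the points sharing a library's scaling). The same r was -0.72 for Ftl1, -0.60 for Hmox1, -0.47 for Fth1, -0.45 for Cp, -0.36 for Tfrc and -0.18 for Heph. The part of background or RNA quality in the levels within groups was not tested. In bulk RNA, fewer cells of a kind and less RNA per cell cannot be told apart.

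Pairs of members varied together to different degrees over the 16 libraries. The highest Pearson r of log2(CPM + 1) were 0.91 between Fth1 and Hmox1, 0.86 between Ireb2 and Aco1, 0.85 between Ftl1 and Hmox1, 0.84 between Ftl1 and Aco1 and 0.81 between Fth1 and Ftl1. Cp had 0.76 with Heph and 0.73 with Tfrc, and Tfrc had -0.02 with Hmox1. These values hold group differences and library differences together.

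**Figure D4:**
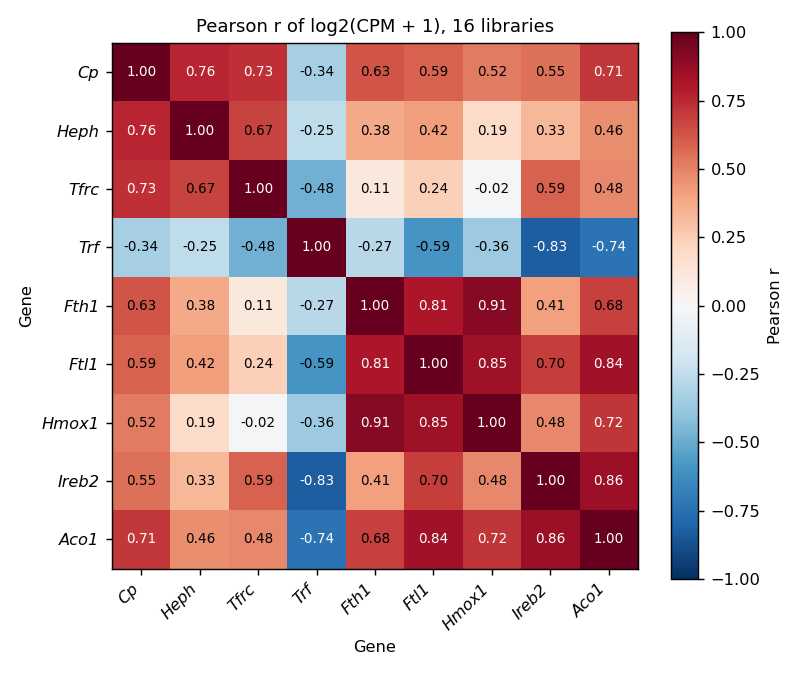
Pearson r of log2(CPM + 1) over 16 libraries for each pair of the 9 genes, on a scale from -1 (blue) to 1 (red). Fth1, Ftl1 and Hmox1 share high values (0.81 to 0.91), Cp, Heph and Tfrc share 0.67 to 0.76, and Trf is negative with all other members.

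The 9132 genes averaging 10 CPM or more were ranked by the same r, and the 3 most like each member in pattern are given. For Cp they were Vash1 (0.98), Edn1 (0.98) and Serpinb6b (0.97). For Heph they were Chst2, Ccn2 and Amotl2 (0.88 to 0.89), of which Ccn2 and Amotl2 are well-known YAP and TAZ targets. Tfrc was most like Slco1c1, Slc7a1 and Slco1a4 (0.94 to 0.95), all membrane transporters of the brain endothelium. For Fth1 they were Tmem176b, Lgmn and Litaf (0.98), for Ftl1 Nucb1, Surf4 and Lrrc59 (0.97), and for Hmox1 Tubb6, Adamts9 and Il4ra (0.96 to 0.97). Ireb2 was most like Cnot1, Nipbl and Csnk1g3 (0.99), and Aco1 most like Oxa1l, Polr2b and Slc23a2 (0.97). For Trf, at background, they were Mroh2a, Neb and Dnah1 (0.85 to 0.88). These are descriptions over 16 libraries.

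Other genes of iron handling were taken from 10 lists, and 81 that are not members were tested. None was called for genotype after sham or after MCAo by edgeR. The study's own DESeq2 results list Bmp6, from the list of BMP signalling, as lower in YT-iKO after MCAo. At an unadjusted p under 0.05 there were 5 lower and 0 higher in YT-iKO after sham, and 4 lower and 2 higher after MCAo, out of 81. Over all genes tested, 2.16% and 1.49% had such a p in either direction. Their median log2 fold changes were -0.10 and -0.02, beside 0.11 and 0.03 over all genes tested. MCAo changed 1 of the 81 in each genotype, both upward, with medians of 0.06 in CTRL and 0.08 in YT-iKO (0.216% and 0.318% of all genes were called). At an unadjusted p under 0.05 there were 5 higher and 1 lower in each genotype, against 3.5% and 3.01% of all genes.

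Slc40a1, the iron exporter ferroportin, had 357, 300.1, 329.9 and 279 CPM in CTRL sham and 224, 195, 124 and 184 CPM in YT-iKO sham, groups that did not overlap. After MCAo it had 338, 199, 181 and 241 CPM in CTRL and 135, 103, 153 and 190 CPM in YT-iKO, groups that overlapped by 1 library on each side. The log2 fold changes were -0.80 (SE 0.25; edgeR, adjusted p = 0.990) and -0.72 (SE 0.25; edgeR, adjusted p = 1.0). Slc40a1 was called in 4 of 10 other settings after sham and in 2 of 10 after MCAo. With 1 library left out it was called in none of 16 cases for either comparison. Scaling by abundant genes brought the adjusted p to 0.01655 and 0.0104, with 0.37% and 0.582% of all genes called. App, whose product is held to assist ferroportin, was at 1715 to 3546 CPM with log2 fold changes of -0.24 and 0.04 in YT-iKO.

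Steap3, which reduces iron in endosomes so that it can enter the cytosol, rose in CTRL MCAo. It had 18.7, 16.5, 18.1 and 14.8 CPM after sham and 70.3, 31.5, 34.4 and 47.3 CPM after MCAo, a log2 fold change of 1.43 (SE 0.28) with adjusted p = 0.0398 (edgeR). It was no longer called when CTRL sham replicate 2 was left out (adjusted p = 0.235, edgeR) or without CTRL MCAo replicate 4 (0.157). In YT-iKO the log2 fold change was 1.19 (SE 0.28; edgeR, adjusted p = 0.116). Lcn2, the siderophore-binding acute phase protein lipocalin 2, rose in YT-iKO MCAo from 12.7, 6.18, 9.59 and 3.95 CPM after sham to 112, 18.2, 24.3 and 68.2 CPM, a log2 fold change of 2.77 (SE 0.45) with adjusted p = 0.00527 (edgeR). It was 1.82 with limma-voom and 2.07 to 3.04 with 1 library left out, called in all 16 of those cases. The call was lost when only these 2 groups were fitted (adjusted p = 0.213, edgeR). In CTRL it went from 8.24 to 12.1 CPM after sham to 19.9 to 41.5 CPM after MCAo, a log2 fold change of 1.60 (SE 0.43; edgeR, adjusted p = 0.291). The difference of the Lcn2 response between genotypes was 1.18 (95% interval -0.14 to 2.49) and was not called.

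**Figure D5:**
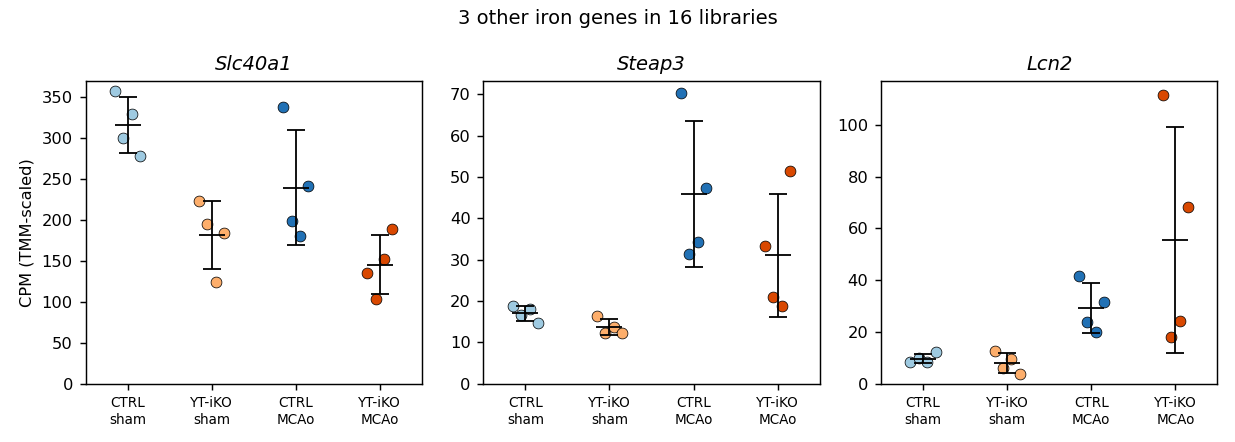
CPM (TMM-scaled, linear axes) of Slc40a1, Steap3 and Lcn2 in each library by group, with the mean and SD (n = 4). Slc40a1 is lower in YT-iKO sham (124 to 224 CPM) than in CTRL sham (279 to 357 CPM), and Steap3 and Lcn2 are higher in the MCAo groups.

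In the 8 lists with no call by edgeR, the 2 genes most abundant per kilobase were followed. Heme transport and synthesis were represented by Flvcr2 and Slc48a1 and by Alas1 (the first step of heme synthesis) and Alad. Alas1 had log2 fold changes of -0.59 and -0.54 in YT-iKO after sham and MCAo, and Flvcr2 of -0.40 and -0.43, with adjusted p of at least 0.990 (edgeR). Slc3a2, which pairs with the cystine carrier, had -0.73 after sham, with 402 to 452 CPM in CTRL and 222 to 348 CPM in YT-iKO, and -0.44 after MCAo, where the groups overlapped (edgeR, adjusted p = 0.990 and 1.0). Slc48a1 had -0.07 and 0.20, and Alad -0.05 and -0.03. In the lists of mitochondrial iron, iron sensing, BMP signalling and NRF2 targets, Iscu, Epas1, Skp1, Id1, Bmpr2, Prdx1 and Nfe2l2 had log2 fold changes of -0.37 to 0.31 in the 4 comparisons, and Gpx4, which detoxifies lipid peroxides, of -0.26 to -0.05.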

How the data were processed

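RNA of sorted bECs was sequenced as paired-end SMART-Seq libraries, each from a pool of mice, with 16 libraries in 4 groups of 4. Per the labels and the study's methods, the authors mapped reads with STAR 2.7.8a to GRCm38 with GENCODE annotation and deposited raw read counts per gene. The counting program and the handling of strand are not given in the sources used here. Groups came from the sample labels. Totals of 11418262 to 23074547 counts per library set the precision of low genes.

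From the deposited counts, genes were filtered with filterByExpr (minimum count 10, minimum total 15), scaled by TMM factors and tested in 1 quasi-likelihood model of the 4 groups with edgeR 4.0.16 (R 4.3.3). P-values were adjusted by Benjamini-Hochberg over 31085 genes, and a gene was called at an adjusted p under 0.1. Single genes were also compared by two-sided exact permutation of log2(CPM + 1). Each p-value measures the spread between pools, not between single mice.

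The 9 genes, the lists of other iron genes and the tests were chosen with earlier results of these data known. Named were the 9 members, Yap1 and Wwtr1, each listed iron gene called in a comparison, in lists with none the 2 genes of highest CPM per kilobase, the 3 genes most like each member, and annotated pseudogenes of the members. A gene that this rule names is not reported here. Alternatives were DESeq2 1.42.0, limma-voom (limma 3.58.1), other scaling and filters, only the 2 groups compared, a replicate block, background density or Y-linked level as a covariate, and each library left out. The analysis code was tested on simulated data.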

Additional observations from a re-analysis of the deposited data

How the results depend on the processing

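Of 1065 alternative values of 41 fold changes, 951 kept their direction and side of the threshold, 54 passed it only in the alternative, 25 no longer passed it and 35 changed sign. Another 32 values, permutation differences with a pseudocount of 0.5, kept theirs. The lower level of Cp in YT-iKO sham ran from -1.88 to -1.70 over 10 other settings and from -1.91 to -1.71 with 1 library left out. The cause of the other changes was not tested. For YT-iKO against CTRL after sham, limma-voom and the background covariate each called 2 members (Cp, Tfrc) in place of 1 (0.46% and 0.499% of all genes, against 0.0965%), and leaving out 1 library gave 0 to 1 (0 without YT-iKO sham replicate 4). After MCAo, in place of 0, DESeq2 and the background covariate called 3, TMM factors from abundant genes and limma-voom 2, and the CPM filter and the replicate block 1 (Cp). These settings called between 0.109% and 0.898% of all genes, against 0.0708%. Leaving out a library gave 0 to 1. For MCAo in CTRL, in place of 0, limma-voom called 3, abundant-gene factors, only the 2 groups and the background covariate 2, and DESeq2, RLE factors, no filter, the CPM filter and the replicate block 1. Of all genes limma-voom called 24.2%, and the other settings named here 0.254% to 2.61%, against 0.216%. Leaving out a library gave 0 to 1. For MCAo in YT-iKO, in place of 1, DESeq2, abundant-gene factors and the background covariate called 3, limma-voom 2 (Fth1 and Trf, the latter at background and not read), and only the 2 groups or the Y-linked covariate 0. Of all genes these settings called 1.25%, 1.72%, 1.87%, 18.1%, 0.0624% and 0.251%, against 0.318%. Leaving out a library gave 0 to 3 (3 without YT-iKO MCAo replicate 2, where 0.642% of all genes were called). Over the libraries left out, the share of all genes called ran from 0.0366% to 0.131% and 0.0334% to 0.143% for genotype after sham and MCAo, and from 0.0791% to 0.492% and 0.113% to 0.642% for MCAo in CTRL and YT-iKO. Of the other iron genes, 2 were called, against 33 with limma-voom, 11 with the background covariate, 9 with abundant-gene factors, 6 with only the 2 groups and 1 to 2 with a library left out. Over the 4 comparisons those settings called 0.46% to 24.2%, 0.499% to 2.61%, 0.37% to 1.78% and 0.0624% to 2.52% of all genes, in the same order.

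The labels name no pairing, so replicate numbers were not read as pairs in the main model. Same-numbered libraries were still more alike than others. Their deviations had a median r of 0.199 over 24 pairs, 15 of them above 0.1, beside -0.115 over 72 pairs of different number. With the replicate block Cp was called after MCAo (adjusted p = 0.0652, edgeR). Factors from abundant genes moved the median log2 fold change of all genes by 0.19 for genotype after sham and 0.14 for MCAo in CTRL, and limma-voom by 0.21 for MCAo in YT-iKO.

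Small fold changes of uncalled members changed sign. For Ftl1, genotype after MCAo was -0.021 with no filter, -0.12 with limma-voom, -0.059 with the background covariate and -0.34 to 0.27 with a library left out, and limma-voom gave -0.19 and -0.067 for MCAo in CTRL and YT-iKO. For Hmox1, genotype was 0.0011 after sham with the background covariate, and after MCAo -0.57 with limma-voom, -0.035 with the background covariate and -0.23 to 0.41 with a library left out. For Ireb2, genotype after MCAo was 0.043 with the Y-linked covariate and -0.25 to 0.10 with a library left out, MCAo in CTRL was -0.27 to 0.030 with a library left out, and MCAo in YT-iKO was -0.38 with limma-voom, -0.0099 with only the 2 groups, -0.078 with the background covariate and -0.14 to 0.21 with a library left out. For Aco1, limma-voom gave -0.034 and -0.21 for MCAo in CTRL and YT-iKO, and genotype after MCAo was -0.30 to 0.015 with a library left out. For Heph, MCAo in YT-iKO was -0.29 to 0.017 with a library left out. At 61 to 188 counts per library Heph, and at 4 to 34 Trf, are limited by depth and background.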
